A study of Mus musculus with 2 samples.

Results

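Among dissociated cells of the cardiac neural crest region of E9.5 mouse embryos, 782 of 21723 cells carried so much globin RNA that they stood apart from the rest. They were chosen by 1 criterion: the embryonic globin genes Hba-x, Hbb-y and Hbb-bh1 and the alpha-globin genes Hba-a1 and Hba-a2 together made up at least 5% of the unique molecular identifiers (UMIs, 1 per captured transcript) of the cell. The tissue spanned the level of the otic placode and the first somites. It came from C57BL/6 embryos of 2 genotypes, with 1 droplet library for each. The WT library was from Prdm6+/+; Wnt1-Cre2; ZsGreen1 embryos and held 563 of these cells among 11958. The KO library was from Prdm6f/f; Wnt1-Cre2; ZsGreen1 embryos and held 219 among 9765. Both genotypes carried the Cre driver and the green reporter. Wnt1-Cre2 makes Cre recombinase in the Wnt1 lineage, which includes the neural crest and is not known to include the blood. Recombination in blood cells was not measured. The labels call the cells of both libraries cardiac neural crest cells, but no sorting step is described, and in the globin-rich cells neural crest genes summed to 0.317 (WT) and 0.308 (KO) times their level in the other cells.

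Primitive erythroid cells are the first red cells of the embryo. They arise in the blood islands of the yolk sac, enter the circulation as nucleated cells once the heart beats, and go on dividing while they fill with hemoglobin. Their hemoglobin is built from embryonic chains: zeta (Hba-x) beside the alpha chains (Hba-a1, Hba-a2), and epsilon-y (Hbb-y) and beta-H1 (Hbb-bh1) in place of the adult beta chains (Hbb-bs, Hbb-bt). As these cells mature, zeta is known to give way to alpha and beta-H1 to epsilon-y.

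Each genotype had 1 library, so differences between WT and KO have no replicate check, no test was made, and genotype, library and embryo cannot be told apart. All intervals are exact intervals of 95% that cover counting error only. The WT library held 20781384 UMIs and the KO library 18936857. The erythroid cells had a median of 2020 UMIs in WT (range 707 to 4311) and 2456 in KO (954 to 4465), against 1576 and 1678.5 in the other cells. The libraries shared 26 cell barcodes, none of them (0) on an erythroid cell.

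The globin share of a cell split each library into a large low mode and a small high mode. Among the erythroid cells it ran from 5.15% to 43.9% of UMIs in WT, with a median of 13.8%, and from 5.33% to 44.8% in KO, with a median of 14.3%. Few cells lay near the minimum: 13 WT and 4 KO cells fell between 5% and 6%, and 6 WT and 7 KO cells between 4% and 5%. The lowest cells taken in were at 5.15% and 5.33%, and the highest left out at 4.87% and 4.91%. In the other cells the median share was 0.478% in WT and 0.231% in KO, and 99.8% and 98.5% of them held at least 1 globin UMI. The erythroid cells thus contained 67.0% of the globin UMIs of the WT library and 68.2% of those of the KO library, and the remainder was spread thinly over cells of other kinds. These values chose the cells and are given as a description.

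**Figure D1:**
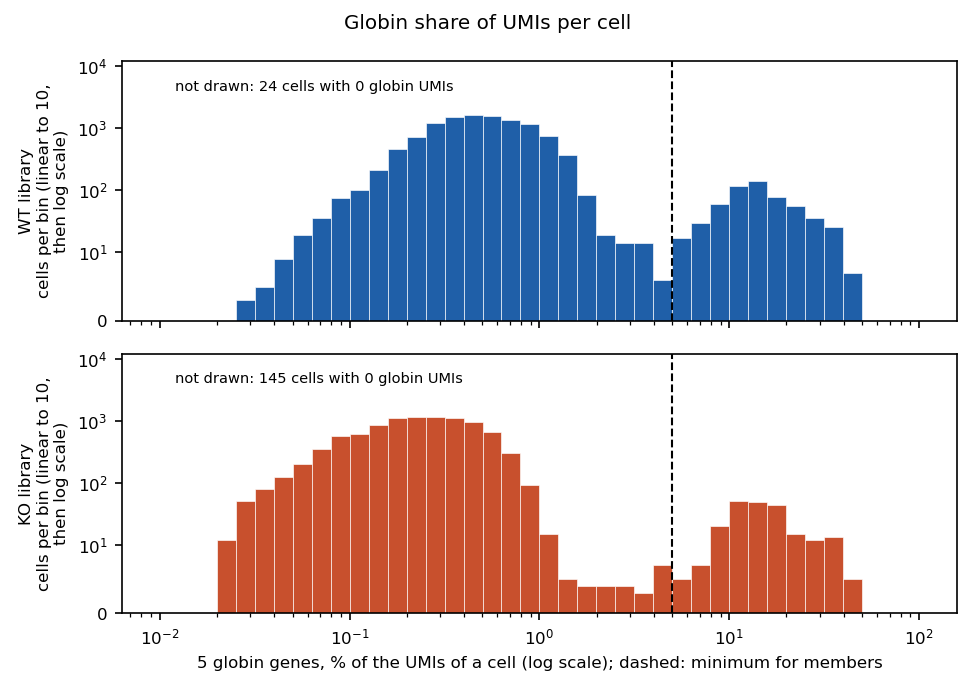
Number of cells (vertical axis, linear up to 10 and logarithmic above) by the share of the UMIs of a cell that came from the 5 globin genes (horizontal axis, percent, logarithmic) in the WT (upper) and KO (lower) library. The dashed line at 5% separates the 563 WT and 219 KO erythroid cells from a broad mode of other cells centred below 1%.

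Erythroid cells made up 4.71% of the WT library (4.34% to 5.10%) and 2.24% of the KO library (1.96% to 2.56%). On the log2 scale the KO share was lower by 1.07, with a ratio KO over WT of -1.07 (-1.30 to -0.84). The globin share of the other cells was lower in KO by a similar factor, 0.491% of their UMIs in WT and 0.237% in KO. How much blood stayed with the dissected tissue was not measured, and it cannot be told apart from genotype with 1 library each.

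Genes outside the selection rule bear on the name of these cells. Of 7 erythroid markers that the rule did not use (Gata1, Klf1, Alas2, Slc4a1, Epb42, Hemgn and Tfrc), at least 3 were detected in 77.8% of the WT and 84.5% of the KO erythroid cells. Among the other cells this held for 14 WT cells (0.123%) and 4 KO cells (0.0419%). Slc4a1, which encodes the anion exchanger band 3 of the red cell membrane, was detected in 93.4% and 93.2% of the erythroid cells, and in 2.49% and 1.69% of endothelial cells, defined here as other cells with at least 5 UMIs of endothelial genes. The endothelial cells were the deeper ones, with medians of 2279 and 2820.5 UMIs. None of the 7 markers was found in 6 WT and 5 KO erythroid cells.

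Genes of blood progenitors, as a list, summed to less than in the other cells. Kit, the stem cell factor receptor, had 7 UMIs over all WT and 3 over all KO erythroid cells. Gata2, a factor of early progenitors, had 1 and 2, and Myb, which definitive progenitors require, had 8 and 0. Runx1, a factor of blood formation, went the other way, at 14.2 and 17.4 CPM against 2.41 and 1.96 CPM in other cells, from 14 and 8 UMIs. Detection of Kit, in 1.24% and 1.37% of erythroid cells, was below that in the other cells (2.82% and 3.05%). Bcl11a (1 and 0 UMIs) and Sox6 (7 and 2), factors known to silence embryonic globin genes in definitive red cells, were near 0 as well. A count of 0 in 219 KO cells allows a share of cells with a UMI of Myb or Bcl11a of up to about 1.37%. This bound is the approximation of 3 over the number of cells and not an exact interval. It does not limit the share of cells that express these genes. Prdm6 itself had 4 UMIs in the WT and 0 in the KO erythroid cells, too few to compare. The floxed gene was detected in 0.710% of the WT erythroid cells and in 0.851% of the other WT cells. By these genes the cells matched their name, apart from the few without erythroid markers and 1 cell with adult chains described below.

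Embryonic chains were most of the globin RNA. Counts from the 3′ end give 1 UMI per captured transcript whatever its length, so shares of UMIs were compared between genes without a length scale. Of the UMIs of the 5 globin genes, Hbb-y took 34.7% in WT and 34.8% in KO, Hbb-bh1 21.8% and 25.6%, and Hba-x 20.9% and 17.9%. The alpha genes took 15.0% and 14.2% (Hba-a1) and 7.60% and 7.44% (Hba-a2). Hba-a1 and Hba-a2 are near-identical copies, and how reads were split between them is uncertain; together they took 22.6% in WT and 21.7% in KO. Hba-x was detected in all 563 WT and all 219 KO erythroid cells and Hbb-y in 563 and in 99.5% of 219. In single cells the Hba-x share of the 5 globins ran from 7.84% through a median of 20.3% to 41.3% in WT and from 1.54% through 18.4% to 26.2% in KO. For Hbb-bh1 the same values were 8.33%, 20.1% and 37.3% in WT and 3.08%, 23.0% and 40.2% in KO. The cells of the libraries thus overlapped widely in both chains. Hbq1b, a theta chain gene of the alpha cluster, had 107 and 71 UMIs, and Hbb-bh2 of the beta cluster 13 and 7.

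The genes lie in 2 clusters. On chromosome 11 of GRCm38, the build named in the submitters' notes as mm10, stand Hba-x (32276400 to 32278116), Hba-a1 (32283511 to 32284465) and Hba-a2 (32296489 to 32297298). On chromosome 7 stand Hbb-y (103851749 to 103853216), Hbb-bh1 (103841637 to 103843164), Hbb-bs (103826534 to 103828096) and Hbb-bt (103812524 to 103813996). The promoters of the embryonic zeta and epsilon-y genes are shown beside those of an alpha gene and an adult beta gene, because the balance between these chains is described below. Each runs from 250 bases before to 50 bases after the start in RefSeq (GRCm38.p6), 5′ to 3′ on the strand of the gene. Capitals mark AGATAA or its reverse TTATCT, a core bound by GATA factors, and CACCC or its reverse GGGTG, a core bound by Klf1 and related factors. These motifs share no bases with each other in the printed windows.
Hba-x promoter, chr11:32276350-32276649, plus strand: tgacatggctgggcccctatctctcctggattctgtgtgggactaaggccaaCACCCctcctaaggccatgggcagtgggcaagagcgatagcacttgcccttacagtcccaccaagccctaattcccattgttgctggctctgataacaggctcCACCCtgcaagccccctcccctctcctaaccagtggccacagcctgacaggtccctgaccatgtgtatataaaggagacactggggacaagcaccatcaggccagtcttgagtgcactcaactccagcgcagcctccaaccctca
Hba-a1 promoter, chr11:32283422-32283721, plus strand: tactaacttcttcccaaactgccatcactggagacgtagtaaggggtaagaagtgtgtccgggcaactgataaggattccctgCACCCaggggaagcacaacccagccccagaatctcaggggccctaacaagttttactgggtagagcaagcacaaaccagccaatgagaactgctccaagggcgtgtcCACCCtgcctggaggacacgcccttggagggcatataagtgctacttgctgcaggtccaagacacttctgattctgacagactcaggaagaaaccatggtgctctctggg
Hbb-y promoter, chr7:103853158-103853457, minus strand: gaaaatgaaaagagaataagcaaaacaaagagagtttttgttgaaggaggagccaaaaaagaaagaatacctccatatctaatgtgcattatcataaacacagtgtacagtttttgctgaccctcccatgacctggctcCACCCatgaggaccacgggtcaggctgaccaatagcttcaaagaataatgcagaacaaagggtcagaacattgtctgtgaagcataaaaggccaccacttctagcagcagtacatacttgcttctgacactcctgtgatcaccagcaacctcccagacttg
Hbb-bs promoter, chr7:103827879-103828178, minus strand: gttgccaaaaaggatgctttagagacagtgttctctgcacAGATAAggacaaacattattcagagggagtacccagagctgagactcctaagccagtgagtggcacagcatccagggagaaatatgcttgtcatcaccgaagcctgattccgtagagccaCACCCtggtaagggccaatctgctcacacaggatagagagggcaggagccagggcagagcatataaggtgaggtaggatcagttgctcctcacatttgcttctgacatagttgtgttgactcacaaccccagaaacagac

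CACCC was present in the 4 promoters of the rule's globin genes that the table held (Hba-x, Hba-a1, Hba-a2 and Hbb-y), and AGATAA in 0 of them. Hba-x had CACCC at 2 places, starting 198 and 95 bases before the RefSeq start, and Hbb-y at 1 place, 111 bases before it. Hbb-bs had both motifs, AGATAA 210 and CACCC 90 bases before its start. For scale, CACCC was found in 57.5% and AGATAA in 11.2% of all 32851 promoters of the table. The GENCODE genes given above begin upstream of these RefSeq starts, so the earlier bases of a window can lie inside the GENCODE gene. TGATAA and its reverse TTATCA, another form of the GATA core, were not searched for. TGATAA stands in lower case in the Hba-x and Hba-a1 windows, and TTATCA in the Hbb-y window. A match is a description of the letters and not evidence of binding, and a missing match says only that the letters are not in this window.

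The balance of chains shifted with how much globin a cell held. Zeta was 48.0% of alpha-type UMIs over the WT erythroid cells (47.6% to 48.3%) and 45.3% over those of KO (44.8% to 45.8%). In WT cells with 5 to 10% globin it was 41.3%, with 10 to 20% it was 41.6%, with 20 to 40% it was 58.6%, and above 40% it was 66.7%. In KO cells the same steps were 40.2%, 41.1%, 54.0% and 62.6%. The share was therefore flat up to 20% globin and higher above, in both libraries. The number of cells at each step was 106, 335, 116 and 6 in WT and 32, 142, 40 and 5 in KO. From cells under 10% to cells of at least 20% globin, zeta was higher by 17.9 percentage points in WT and 15.2 in KO. Weighting cells equally gave 14.6 and 13.8 points. Across single cells, Spearman's rho between zeta share and globin share was 0.40 in WT (563 cells) and 0.42 in KO (219 cells), a description in which both measures share the Hba-x UMIs and the depth of the cell.

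**Figure D2:**
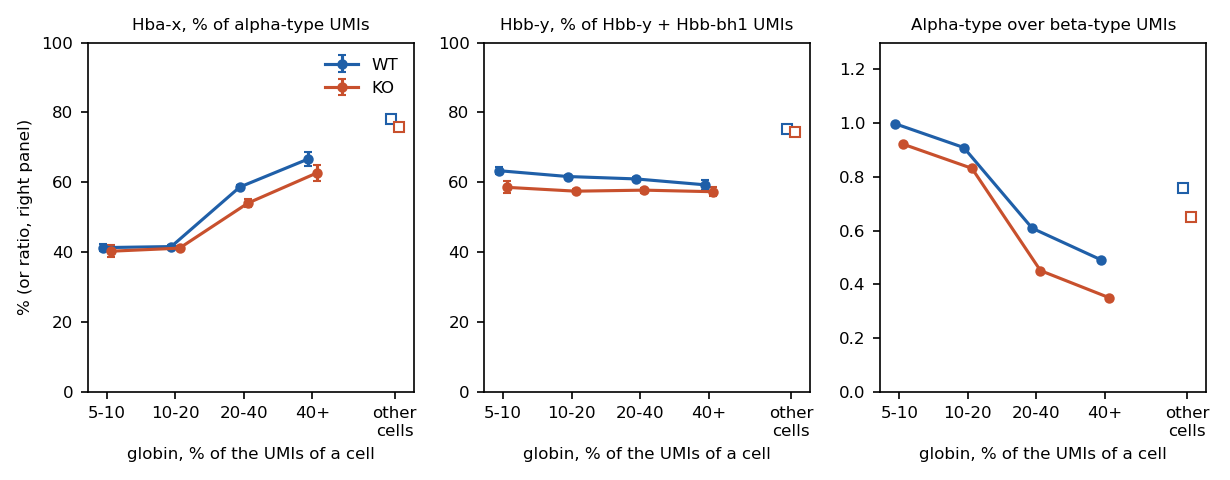
Zeta (Hba-x) share of alpha-type UMIs (left, percent), epsilon-y (Hbb-y) share of embryonic beta-type UMIs (middle, percent) and alpha-type over beta-type UMIs (right, ratio) in erythroid cells by the globin share of the cell (horizontal axis, percent), for WT (blue) and KO (orange), with open squares for the other cells and bars for 95% counting intervals where drawn. Zeta is higher above 20% globin in both libraries, epsilon-y stays between 57.3% and 63.3%, and the ratio is lower at each step.

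Alpha-type chains were outnumbered by beta-type chains more strongly in globin-rich cells. The ratio of alpha-type to embryonic beta-type UMIs was 0.770 in WT and 0.655 in KO overall. In WT it went from 0.997 at 5 to 10% globin through 0.909 and 0.608 to 0.491 above 40%, and in KO from 0.921 through 0.831 and 0.451 to 0.350. At each of the 4 steps the KO value was below the WT value.

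Epsilon-y varied less. It was 61.4% of embryonic beta-type UMIs in WT (61.1% to 61.6%) and 57.6% in KO (57.2% to 58.0%). Between cells with the least and the most globin it went from 63.3% to 59.3% in WT and from 58.5% to 57.3% in KO. Single cells were spread widely about these values: the middle 50% of cells lay between 58.7% and 65.9% in WT and between 54.2% and 62.5% in KO, and the KO median of 58.4% lay just below the middle range of WT.

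Between the libraries, the chains of the erythroid cells differed in opposite directions. As a share of all UMIs of these cells, Hbb-bh1 was higher in KO, 4.32% against 3.60%, a log2 ratio KO over WT of 0.26 (0.24 to 0.29). Hba-x was lower, 3.03% against 3.44%, with a log2 ratio of -0.19 (-0.21 to -0.16). Hbb-y (0.04), Hba-a1 (-0.05) and Hba-a2 (0.00) had log2 ratios close to 0. Since each interval covers counting error alone, these ratios compare 2 libraries and not the genotypes. In total, globin took 16.5% of the UMIs of the erythroid cells in WT and 16.9% in KO, and the order of the libraries turned when cells under 10% globin, or the 10% of cells with most UMIs, were left out.

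The globin RNA found in the other cells had other shares of zeta and epsilon-y, while its alpha to beta ratio (0.758 in WT and 0.651 in KO) and its adult beta share (0.540% and 0.876%) were near those of the erythroid cells. There zeta was 78.1% of alpha-type UMIs in WT and 75.8% in KO, and epsilon-y was 75.3% and 74.5% of beta-type UMIs. Endothelial cells gave 79.0% and 77.6% for zeta. The 2 alpha genes together were 9.46% and 9.56% of the 5 globins in other cells, against 22.6% and 21.7% in erythroid cells. In zeta share the globin of other cells was nearest to the richest erythroid cells, those above 40%, and none of the 4 steps of erythroid cells reached its epsilon-y share. Its source was not tested.

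Adult beta chains were a trace of the total. Hbb-bs and Hbb-bt, also near-identical copies, together had 553 UMIs in the WT and 506 in the KO erythroid cells, 0.500% and 0.888% of beta-type UMIs. As a share of all UMIs, Hbb-bs had a log2 ratio KO over WT of 1.05 (0.86 to 1.24). The highest Hbb-bs count in 1 erythroid cell was 36 of 458 UMIs in WT and 55 of 445 in KO. At least 1 adult beta UMI was found in 46.0% of WT and 57.5% of KO erythroid cells, and in 2.57% and 2.12% of the other cells. The KO erythroid cells were also the deeper ones, with a median of 2456 UMIs against 2020 in WT. Cells with 10 or more were rare, 5 in WT and 10 in KO. Another KO erythroid cell, of 954 UMIs, had 36 Hbb-bs and 7 Hbb-bt UMIs beside 36 Hba-a1 and 26 Hba-a2, with 1 of Hba-x, 0 of Hbb-y and 2 of Hbb-bh1, and none (0) of Gata1, Klf1, Alas2 or Slc4a1. Its chains were of the adult kind. In WT, 0 erythroid cells had more adult than embryonic beta UMIs, and without the KO cell of 954 UMIs the adult share in KO was 0.813%.

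Outside globins, the genes highest in the erythroid cells relative to the other cells included known red cell genes. Levels are given as CPM, counts per 1000000 UMIs outside globins. Of 1878 genes with at least 50 UMIs in the erythroid cells of each library, 156 were at least 2-fold higher than in the other cells in both libraries (8.31%) and 43 at least 2-fold lower (2.29%), with 10 CPM added to each side. This is the contrast that chose the cells, so nothing is read from the counts. The leading gene was Slc4a1 (chromosome 11, 102348824 to 102366203). Its level was 2046 CPM in the WT and 1814 CPM in the KO erythroid cells, against 16.4 and 8.07 CPM in other cells, or 78.0 and 101-fold higher. Next stood Klf1, a master activator of red cell genes (chromosome 8, 84901928 to 84905291), at 516 and 446 CPM and 35.6 and 39.7-fold. Gata1, the GATA factor that red cells depend on (chromosome X, 7959260 to 7978071), stood at 447 and 365 CPM, 34.4 and 31.0-fold higher.

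The 25 leading genes, of which 23 are described, fell into a few roles. For iron and heme, they held Slc25a37, which carries iron into mitochondria (34.4 and 49.8-fold), Alas2, the first enzyme of heme synthesis in red cells (28.1 and 47.1-fold), Cpox, a later enzyme of that path (23.6 and 31.9-fold), Blvrb, a biliverdin reductase (16.4 and 19.2-fold), and Hebp1, a heme-binding protein (15.5 and 16.0-fold). For membrane and blood group antigens, Smim1, the Vel antigen (25.6 and 43.0-fold), Rhag (20.8 and 25.9-fold), Sptb, beta spectrin (20.3 and 22.1-fold), Add2, beta adducin (16.0 and 17.8-fold) and Kel (14.9 and 24.1-fold) were among them. Csf2rb, a shared cytokine receptor subunit, was 31.6 and 27.5-fold higher. Enzymes included Car2, a carbonic anhydrase (22.5 and 31.9-fold), Pklr, the red cell pyruvate kinase (19.4 and 19.5-fold), Acp5, an acid phosphatase (413 and 302 CPM), and Mgst3, a glutathione transferase (15.0 and 16.5-fold). Cited4, Nxpe2, Bmp2k, Hemgn and Zc3hav1 were also on the list, at 15.9-fold or more in WT and 17.8-fold or more in KO. Against endothelial cells in place of all other cells, 153 genes were at least 2-fold higher.

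**Figure D3:**
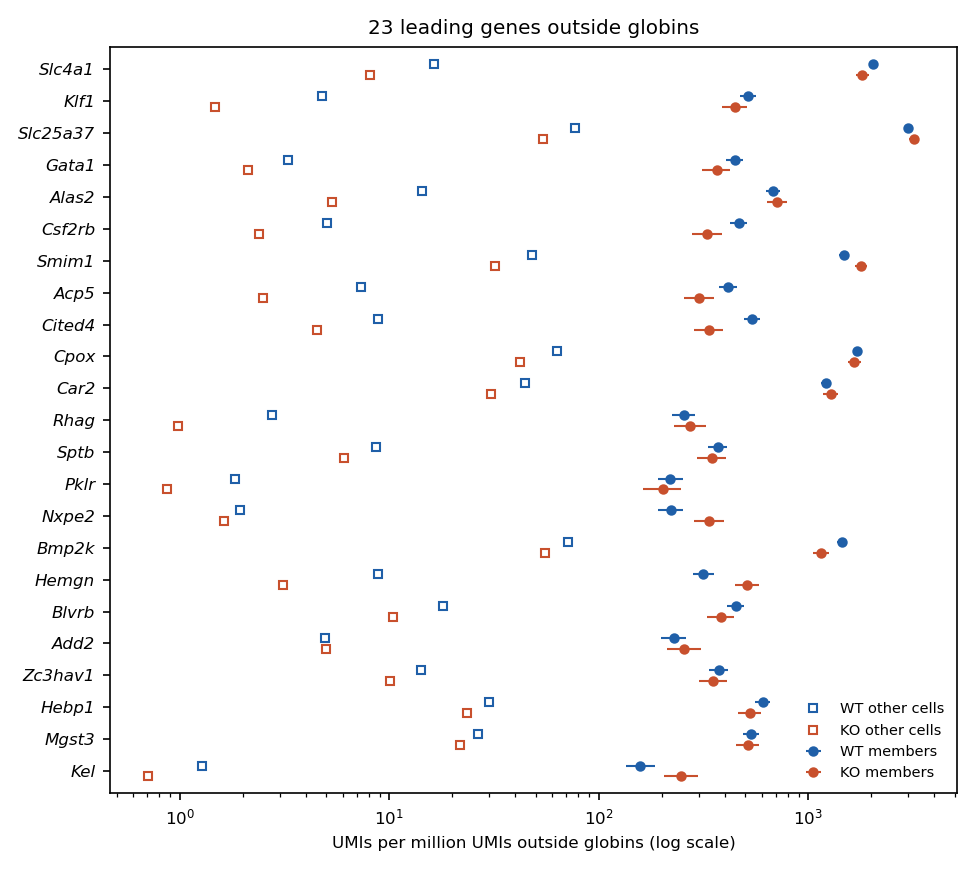
Level of 23 of the 25 leading genes (CPM outside globins, logarithmic axis) in the erythroid cells (filled circles, with 95% counting intervals) and in the other cells (open squares) of the WT (blue) and KO (orange) library. The erythroid cells lie above the other cells for each gene, as the choice of the genes fixes, and for 22 of these 23 genes the KO square lies left of the WT square.

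Promoters of the Klf1 and Alas2 genes are shown as examples, a factor and an enzyme of the leading genes, with capitals as above.
Klf1 promoter, chr8:84901732-84902031, plus strand: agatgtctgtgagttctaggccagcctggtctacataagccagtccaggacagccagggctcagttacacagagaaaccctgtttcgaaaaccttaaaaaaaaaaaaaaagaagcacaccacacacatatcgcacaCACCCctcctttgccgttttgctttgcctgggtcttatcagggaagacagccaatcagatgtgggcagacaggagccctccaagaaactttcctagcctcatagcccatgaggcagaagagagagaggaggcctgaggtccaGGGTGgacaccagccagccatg
Alas2 promoter, chrX:150547167-150547466, plus strand: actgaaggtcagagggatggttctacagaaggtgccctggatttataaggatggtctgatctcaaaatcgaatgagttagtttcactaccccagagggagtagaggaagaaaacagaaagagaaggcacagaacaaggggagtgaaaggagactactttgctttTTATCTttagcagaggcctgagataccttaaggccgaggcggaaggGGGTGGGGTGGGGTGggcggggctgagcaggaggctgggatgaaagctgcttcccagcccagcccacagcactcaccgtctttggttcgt

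Of the 25 leading genes, 19 had a promoter in the RefSeq table, with 23 promoters in all. CACCC was found in 19 of these (82.6%, against 57.5% of all promoters), AGATAA in 6 (26.1%, against 11.2%) and the longer AGATAAG, or CTTATCT, in 2 (8.70%, against 3.04%). The Alas2 window held GGGTG at 3 places that follow each other directly, starting 40, 35 and 30 bases before the start of the gene, and TTATCT 86 bases before it. The Klf1 window held CACCC once before the start, by 114 bases, and GGGTG once after it, and no AGATAA. These shares describe 23 windows and were not tested.

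Gene lists of red cell biology give the wider picture, again as a description of the chosen cells. Heme synthesis genes summed to 6811 CPM in WT and 6233 in KO erythroid cells, 9.10 and 10.3 times the level of the other cells, and 12 of 15 measured list genes were at least 2-fold higher in both libraries, with no minimum of UMIs. For all 18121 genes with a UMI that share was 1.74%, and since this contrast chose the cells, nothing is read from the counts of this paragraph. The erythroid transcription factors were 5.13 and 5.35 times higher in sum, with 13 of 18. Zfpm1, the partner of Gata1 known as FOG-1, stood at 700 and 609 CPM and Tal1 at 189 and 237. Iron handling genes were 5.00 and 5.67 times higher, with 10 of 18, led by the ferritin heavy chain Fth1, at 15475 and 18746 CPM the highest level outside globins. Membrane and skeleton genes were 5.48 and 6.48 times higher, with 19 of 24. Genes of erythropoietin signalling were 5.98 and 5.72 times higher, with 4 of 13, and most of that sum came from Csf2rb and Pim1, a kinase induced by cytokines. Other members, such as Lyn (0.835 and 0.834-fold) and Socs2 (0.969 and 1.08-fold), were near the level of the other cells. The receptor Epor had 137 CPM in WT and 95.7 in KO, a fold of 10.9 and 9.17, and Tfrc, the transferrin receptor, 381 and 361 CPM, a fold of 3.98 and 4.07.

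Other lists stood closer to the rest of the tissue. Chaperone and redox genes were 3.51 and 3.90 times higher in sum, with Gpx1, a peroxide-reducing enzyme, at 4383 and 5880 CPM. Genes of maturation and organelle clearance were 1.71 and 2.13 times higher, with 4 of 13 past 2-fold, Hemgn among them. Glycolysis genes were lower in sum, at 0.823 and 0.843 times the other cells, although Pklr and Bpgm, which makes 2,3-bisphosphoglycerate, were the 2 of 14 past 2-fold higher. Among all genes with a UMI, 1.74% were past 2-fold higher, and as above nothing is read from these counts. Progenitor genes were at 0.490 and 0.460 times the other cells, and stress response genes at 0.640 and 0.562 times.

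Cell cycle genes summed to nearly the same level in erythroid cells as in other cells. The S phase list summed to 6432 CPM in WT and 6391 in KO erythroid cells, 1.03 and 0.992 times the other cells, and the G2/M list to 10795 and 11256 CPM, 1.04 and 1.01 times. Of 41 measured S phase and 52 G2/M genes, 0 were 2-fold higher or lower than in other cells in both libraries, against 1.74% and 2.19% of all genes with a UMI. Top2a, a topoisomerase of dividing cells, stood at 572 and 626 CPM and Mcm6, a helicase subunit, at 351 and 326. Between libraries the log2 ratio of the S phase sum was -0.01 (-0.07 to 0.05) and that of the G2/M sum 0.06 (0.01 to 0.11). Without cells that held markers of another class the G2/M value was 0.01.

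Erythroid cells expressed fewer genes at equal depth. The median number of genes per cell was 1138 in WT and 1319 in KO, against 1114 and 1152.5 in other cells. With every cell thinned to 1000 UMIs it was 670 and 658 against 766 and 759. Cells below that depth could not be thinned, 9 erythroid and 1352 other cells of WT and 2 and 123 of KO. Counted over 500 UMIs outside globins, the medians were 418 and 413 against 422 and 420. Once globins were left out, erythroid and other cells thus differed by a few genes.

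Genes of the surrounding tissue were low but present. Among the 1878 genes with at least 50 UMIs in each library, those lowest relative to other cells were Gpx3 (0.242 and 0.211-fold), Igfbp5 (0.278 and 0.214-fold), Cdkn1c (0.283 and 0.224-fold), Nr2f2 (0.296 and 0.251-fold) and Spry2 (0.209 and 0.297-fold), which were named after their values were seen. Cardiac genes summed to 1191 CPM in WT and 1131 in KO erythroid cells against 3469 and 2960 in other cells, and neural genes to 1136 and 1098 against 2274 and 2397. Neural crest genes were at 93.3 and 91.3 CPM, 0.317 and 0.308 times the other cells. Endothelial genes were at 139 and 89.2 CPM, and genes of mesenchyme, surface ectoderm and endoderm at 0.267 to 0.498 times the other cells. Macrophage genes had 2 UMIs in WT and 0 in KO, with 5 of 7 at 0 in both. Megakaryocyte genes had 29 and 18 UMIs, with 4 of 10 at 0 in both, and unlike the lists above they were higher than in other cells, at 29.4 against 14.0 CPM in WT and 39.1 against 21.7 CPM in KO. At least 5 UMIs of 1 of these lists were found in 76 WT and 32 KO erythroid cells, mostly neural (38 and 15) or cardiac (31 and 18). What part such cells have in the values above was not tested, apart from the values given without them.

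Among lists with UMIs in both libraries, that of yolk sac and liver genes differed most. It had 51 UMIs in the WT and 2 in the KO erythroid cells, a log2 ratio of -3.57 (-6.66 to -1.64), and the other cells had -1.48 (-1.60 to -1.36). Afp, the fetal serum protein alpha-fetoprotein, had 18 and 1 UMIs, Ttr, which carries thyroid hormone, 13 and 0, and Apoa2, an apolipoprotein, 12 and 1. The WT UMIs sat in 22 cells, and 31 of the 51 in 2 cells.

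Most genes differed less than 2-fold between WT and KO erythroid cells. Of 4938 genes with at least 50 UMIs over both libraries, 12 were at least 2-fold higher in KO (0.243%) and 61 at least 2-fold lower (1.24%). With the median of the ratios set to 1 these were 18 and 45. At a minimum of 200 UMIs, they were 0 and 1 of 1476, and at a minimum of 20 UMIs 69 and 331 of 7708. The median log2 ratio was -0.05, and 90% of genes lay between -0.69 and 0.52. The counting interval lay above 0 for 337 genes (6.82%) and below 0 for 371 (7.51%).

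The 10 genes whose interval lay farthest above 0, which is not the order of the ratios, included a pair of histone genes and a pair of respiratory chain subunits. Hist1h1b, a linker histone, had a level of 54.8 CPM in WT and of 189 CPM in KO cells, a log2 ratio of 1.79 (1.28 to 2.31), and Hist1h2ae, a core histone, at 73.0 and 196, a log2 ratio of 1.42 (0.96 to 1.89). In the other cells the same ratios were 1.82 and 1.71. Gm42418, a long noncoding RNA whose locus overlaps ribosomal RNA sequence, had 0.93 here and 1.19 in other cells. Cox6c, a subunit of cytochrome oxidase, had 0.76 against 0.48, and Uqcr10, a subunit of complex III, 0.73 against 0.33. Ncl, nucleolin, had 0.63 against 0.67. Rfc1 (1.05), Eif3j1 (0.77), Acadl (1.28) and Napg (1.62) were higher too, and of these Napg had a ratio near 0 in the other cells (0.07). All 10 genes had the same sign in other cells, and for 9 that interval also lay above 0. Whether the ratios differ between erythroid and other cells was not tested.

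The 10 genes whose interval lay farthest below 0 had few UMIs. Against the other cells, their folds ran from 0.306 (Pam) to 1.16 (Mfsd14b) in WT. In KO they ran from 0.114 (Ankrd1) to 0.578 (Mfsd14b), and the part of RNA from other cells was not tested. Ankrd1, a gene of heart muscle, had 73 UMIs in WT and 7 in KO, a log2 ratio of -2.28 (-3.65 to -1.17), but 28 of the 73 were in 1 WT cell, and without cells holding markers of another class the ratio was -1.40. Fads1, a fatty acid desaturase, had -2.01 (-3.53 to -0.80) from 52 and 6 UMIs. Notch2, a Notch receptor, had the most UMIs, 218 and 46, and a ratio of -1.14 (-1.64 to -0.68), against -0.71 in other cells. Atp2c1, Ube2f, Pam, Pdpn, Fzd7, Mfsd14b and B4galt1 had ratios between -1.59 and -1.31. Without cells holding markers of another class, Pam had -0.86 and Pdpn -0.90, in place of -1.45 and -1.59. In other cells all 10 had the same sign, and for 9 the interval lay below 0, with Ankrd1 (-0.03) the exception.

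**Figure D4:**
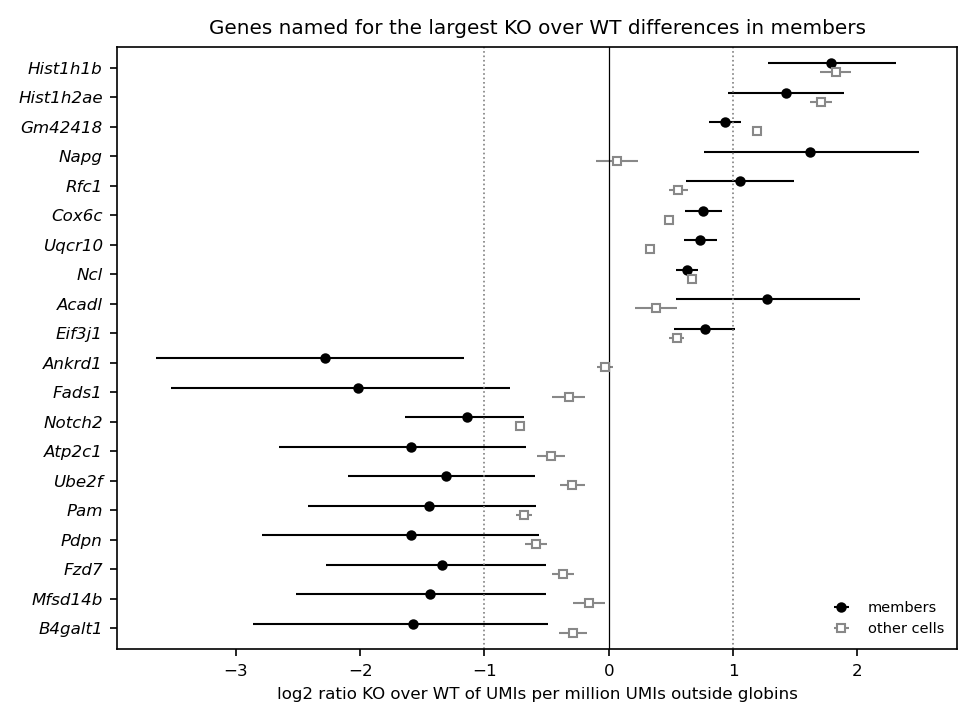
Log2 ratio KO over WT (horizontal axis) of the 10 genes in each direction whose interval in erythroid cells lay farthest from 0 (black circles), with the same genes in the other cells (grey squares) and bars for 95% counting intervals. Dotted lines mark 2-fold. The signs are the same in both kinds of cells for each of the 20 genes.

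Of the genes in the red cell lists with at least 50 UMIs, 0 were 2-fold apart between the libraries, against 0.243% and 1.24% of all genes. Each list had only 7 to 21 such genes, for which those shares amount to few, so nothing is read from the 0. Of 13 heme synthesis genes with enough UMIs, the interval lay below 0 for 5 and above 0 for 0 (7.51% and 6.82% of all genes). Slc25a39 (-0.48), Urod (-0.37), Fech (-0.32) and Tmem14c (-0.18) were among the 5, named after their values were seen, and Alas2 had 0.08 (-0.12 to 0.27). The sum of the list had a log2 ratio of -0.13 (-0.19 to -0.06), against -0.31 (-0.35 to -0.28) in the other cells, where Slc25a39 had -0.51 and Tmem14c -0.21. For transcription factors, 3 of 16 intervals lay below 0, those of Foxo3 (-0.58), Zbtb7a (-0.55) and Gata1 (-0.29). In the other cells these genes had -0.21, -0.19 and -0.63. The sum of that list had -0.15 (-0.24 to -0.06), against -0.21 (-0.25 to -0.17) in the other cells. The interval of Gata1 reached 0 without the 10% of cells with most UMIs and with the median of ratios set to 1, and its value was -1.05 (-1.92 to -0.26) at a 20% globin minimum. Gata1 is on the X chromosome, as is Alas2. Klf1 had -0.21 (-0.45 to 0.03) and Tal1 0.33 (-0.02 to 0.68).

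Ferritin genes and Gpx1 had higher values in KO, whereas their lists were mixed. Fth1 had a log2 ratio of 0.28 (0.24 to 0.31), Ftl1, the ferritin light chain, 0.19 (0.11 to 0.27) and Gpx1 0.42 (0.35 to 0.49), against 0.13, 0.05 and 0.17 in other cells. Of 15 iron genes the interval lay above 0 for 3 (Fth1, Ftl1 and Slc25a37) and below 0 for 1 (Snx3, -0.37), against 6.82% and 7.51% of all genes, and the median was -0.12. The sum of the iron list, most of which is ferritin, had 0.19, but 0.0050 (-0.06 to 0.07) among cells of at least 20% globin. Of 10 chaperone and redox genes the interval lay above 0 for 2 (Gpx1 and Txn1) and below 0 for 0, the median was 0.09, and the sum had 0.25 (0.20 to 0.30), or 0.14 at 20% globin. Among genes of maturation and clearance, Hemgn, a nuclear factor of erythroid cells, had 0.69 (0.44 to 0.94) and Map1lc3b, an autophagy protein, 0.44 (0.11 to 0.78), and the list had 0.37 (0.24 to 0.50), or 0.10 (-0.20 to 0.39) at 20% globin. Erythropoietin signalling had -0.25 (-0.35 to -0.14), with Epor at -0.52 (-1.04 to -0.02) and Csf2rb at -0.50 (-0.77 to -0.23). In the other cells these were -0.18 (-0.23 to -0.13), -1.19 and -1.08. The membrane list had -0.01 (-0.08 to 0.05), and -0.20 (-0.35 to -0.06) at 20% globin, although Kel had 0.65 (0.29 to 1.01) and Slc4a1 -0.17 (-0.29 to -0.06). Glycolysis had -0.16 (-0.21 to -0.11), close to -0.19 in other cells, and -0.01 at 20% globin.

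**Figure D5:**
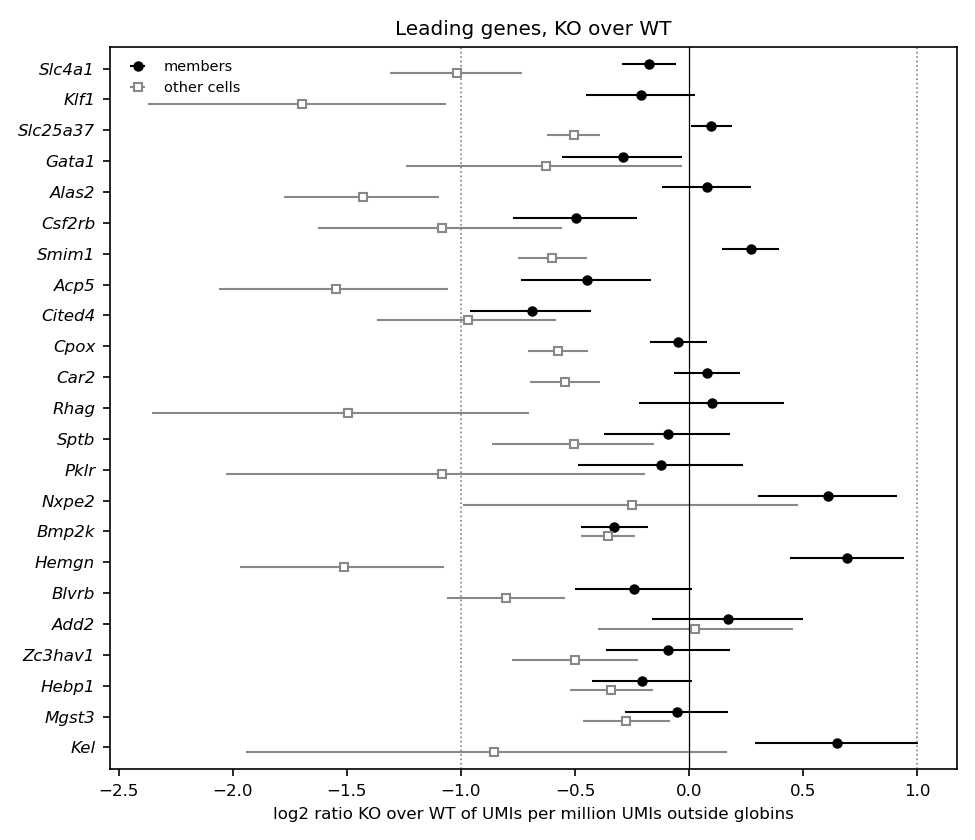
Log2 ratio KO over WT (horizontal axis) of 23 of the 25 leading genes in erythroid cells (black circles) and other cells (grey squares), with 95% counting intervals and dotted lines at 2-fold. In erythroid cells the ratios lie between -0.69 (Cited4) and 0.69 (Hemgn), whereas in other cells 22 of 23 lie below 0.

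Cells with the RNA of female embryos were not equally common in the libraries. Of erythroid cells with UMIs of either Xist, the noncoding RNA of the inactive X chromosome, or of Y-linked genes, but not both, 75.2% in WT (164 against 54 cells) and 88.0% in KO (103 against 14) had Xist. In the other cells the shares were 52.9% and 85.0%. Xist itself stood at 279 CPM in WT erythroid and 156 CPM in other WT cells, whereas the Y-linked genes Kdm5d (18.3 in both) and Eif2s3y (18.3 and 18.9) differed little, Ddx3y had 43.6 and 54.5 CPM, and Uty 7.10 and 19.1 CPM from 7 UMIs in the erythroid cells. Whether the shares move with the depth of the cells was not tested. What part the sex of the embryos has in the ratios of X-linked or other genes was not tested.

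Within each library, some genes followed the globin share of a cell. Cells of at least 20% globin (122 in WT, 45 in KO) were set against those under 10% (106 and 32), a comparison devised after the values were seen. Of 1878 genes, the interval lay above 0 in both libraries for 90 (4.79%), below 0 in both for 35 (1.86%), and apart in opposite directions for 1. Mgst3 was higher by a log2 of 2.11 in WT and 2.07 in KO, Atpif1, an inhibitor of the mitochondrial ATP synthase that red cells need for heme synthesis, by 1.49 and 1.51, and Tmem14c, a porphyrin transporter, by 1.78 and 1.27. Mt1, a metallothionein, had 1.21 and 1.38, and Prdx2, a peroxiredoxin, 1.25 and 1.08. Cells rich in globin thus held more of these transcripts per transcript outside globins.

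Lower in globin-rich cells were Slc2a3, a glucose transporter (-2.22 in WT and -2.67 in KO), Spry2, an inhibitor of growth factor signalling (-2.15 and -2.02), Serpinh1, a collagen chaperone (-1.02 and -1.57), Myl4, a myosin light chain of the atria (-1.09 and -1.69), and Actb, beta actin (-0.74 and -0.62). Of these, Spry2, Serpinh1 and Myl4 were also among the 10 genes lowest in erythroid relative to other cells. The cardiac list was also lower, from 1569 CPM under 10% globin to 1064 CPM at 20 to 40% in WT, and from 1572 to 995 CPM in KO, although the 5 KO cells above 40% had 1414 CPM. Gata1 was highest in the middle of the range, at 534 CPM in WT and 441 in KO cells of 10 to 20% globin, against 261 and 262 below 10% and 390 and 196 at 20 to 40%. Above 40%, 6 WT and 5 KO cells had 317 and 109 CPM. The KO steps share 168 Gata1 UMIs among them, few of them outside the 10 to 20% step, and no intervals are given. Median depth was 1933.5 UMIs under 10%, 1894 at 10 to 20% and 2349.5 at 20 to 40% globin in WT, and 2443.5, 2431 and 2571.5 in KO, so it was higher above 20% only. The part of depth and of RNA from other cells in these differences was not tested.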

How the data were processed

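Dissociated cells of the cardiac neural crest region of E9.5 embryos were profiled by 10x droplet RNA sequencing from the 3′ end, in 1 WT and 1 KO library. Reads were processed by the submitters with Cell Ranger 1.3.1 and Scanpy on mm10; the methods also name a human genome with the ZsGreen1 sequence as reference, although the gene symbols are those of mouse. Cells with too few or too many UMIs or too few genes, rare genes, and mitochondrial and ribosomal UMIs had been removed. The deposited signal values are, as the authors made them, square roots of UMIs scaled to 1 common total per cell. Squares divided by the smallest nonzero square of a cell gave back whole UMIs for 100% of values, within 0.01. A cell whose smallest value stood for more than 1 UMI would be scaled down by this step.

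Erythroid cells were chosen by their globin share, and UMIs were summed per library. The cells, gene lists and tests were chosen with earlier results of these data known. Genes were compared as CPM outside globins, at a minimum of 50 UMIs, with 10 CPM added for folds over other cells. Named were the globins, the 25 genes with the largest fold over other cells (the smaller of the 2 libraries), the 10 in each direction with the KO over WT interval farthest from 0, up to 6 genes of each list by UMIs, and preset regulators. Genes outside this rule were named after their values were seen, and a few genes are not reported here. Intervals were exact (Clopper-Pearson or conditional binomial). Hba-a1 and Hba-a2, and Hbb-bs and Hbb-bt, are near-identical, so reads may be split between copies. Doublets were not called here; the study used DoubletFinder, and whether before deposit is not given in the sources used here. The alternatives were other globin minima, removal of cells with markers of another class or of the deepest cells, thinning, other denominators, scalings, weightings and UMI minima. Python 3.11.15, NumPy 2.4.6, SciPy 1.17.1, pandas 2.3.3 and matplotlib 3.10.9 were used, and the scripts were tested on simulated data. Gene positions are from GENCODE and promoters from RefSeq.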

Additional observations from a re-analysis of the deposited data

Results flagged for a closer look

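For 241 genes, those named or on the gene lists with at least 50 UMIs, the KO over WT ratio in erythroid cells was set beside that in the other cells. In 3 genes the ratios pointed in opposite directions with both counting intervals clear of 0, and the difference between the ratios was not tested. All 3 are leading genes of the erythroid cells. In the other cells, 22 of the 23 leading genes described had a ratio below 0. A leading gene with an interval above 0 in erythroid cells was thus likely to be flagged. No share over all genes was computed, and nothing is read from the count. Hemgn had a log2 ratio of 0.69 in erythroid and -1.51 in other cells, Slc25a37 0.10 and -0.50, and Smim1 0.27 and -0.60. For Slc25a37 the interval in erythroid cells reached 0 in 6 of 9 alternatives, and at a 20% globin minimum it also reached 0 for Hemgn (0.46) and for Smim1 (-0.04). The globin share of the other cells was likewise lower in KO (0.237% against 0.491% of UMIs), and its part in these values was not tested.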

How the results depend on the processing

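No paired analysis was possible because each genotype has 1 library. The lower share of erythroid cells in KO held in 8 of 8 alternatives (log2 ratios of -1.22 to -0.997), and the S phase sum stayed within its counting interval in 7 of 7. The KO minus WT difference in globin share (0.385 percentage points) turned to -0.0563 at a 10% globin minimum and to -0.0402 without the 10% deepest cells, and was 1.47 at a 20% minimum and 0.651 as a mean over cells. Zeta (-2.70 points) became -3.72 at a 20% minimum and -1.56 as a mean over cells, and epsilon-y (-3.78) became -3.16 and -4.30. The 73 genes past 2-fold between libraries were 29 of 1188 at a 20% minimum, 400 of 7708 at 20 UMIs (69 higher, 331 lower) and 1 of 1476 at 200 UMIs (0 higher, 1 lower), where fewer or more genes were counted. The 61 lower ones were 40 at a 10% and 21 at a 20% minimum. The 156 genes higher than in other cells were 41 of 271 at a 20% minimum, 72 of 706 after thinning and 244 of 4248 at 20 UMIs, and the 43 lower ones were 3, 7 and 108 there, 74 with all UMIs as denominator and 28 without the deepest cells. The G2/M sum (0.06) was -0.0353 at a 20% minimum and 0.0096 without cells holding markers of another class. The KO minus WT difference in genes per cell (181) was -12 at 1000 UMIs and -5 over 500 UMIs outside globins. Napg (1.62) was -0.0302 at a 20% minimum. The cause of these moves was not tested where the number of cells or genes does not show it. Of 440 further values for 49 named genes, 420 stayed within the counting interval, 9 of 56 list sums moved beyond theirs, all at a 10% or 20% minimum, and the 25 leading genes stayed at 3.52-fold or more in every setting. The adult beta difference (0.389 points, added after seeing the data like all alternatives without the adult-type cell) ranged from 0.232 to 0.569. With 563 and 219 cells, single genes under about 50 UMIs were not resolved.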
